A study of Mus musculus with 4 samples.

Results

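The matrix genes described here encode the collagens, the laminin chains, the nidogens Nid1 and Nid2, the heparan sulfate proteoglycan perlecan (Hspg2), the fibrillins, the fibulins, fibronectin (Fn1) and Sparc. They were taken by gene name among protein-coding genes with a value in both deposited tables, which gave 63 members out of 19150 genes. One of them, Col4a3bp, was picked by its name only: it encodes a ceramide transfer protein and no collagen, and it is counted among the 63 but placed in no class. Col10a1 and Col4a3 were listed in 1 of the tables and were not analysed here. Of the 63 members, 52 held enough reads to be tested.

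The samples were total-RNA libraries from brains of C57BL/6 mouse embryos at E13.5, from a study of macroH2A deletion, a histone H2A variant with a large extra domain. There were 2 brains per genotype, KO2 and KO4 from knockouts and WT6 and WT8 from wild types. The labels name neither the targeted macroH2A gene nor the allele, the driver of any recombinase, or the litters of the embryos. They also do not say whether meninges were left on. The p-values therefore reflect only how far these 4 samples scatter, and some of that scatter may be technical.

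Collagens are trimers whose chains wind into a triple helix. Fibrillar collagens (types I, III and V) form the fibres of connective tissue and are made around the brain mainly by the mesenchymal cells of the meninges. Basement membranes are thin sheets built on laminin trimers (an alpha, a beta and a gamma chain) and a network of type IV collagen, which nidogens and perlecan tie together. In the embryonic brain they lie beneath the pia, where radial glial endfeet attach, and around blood vessels.

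A macroH2A gene and the tissue were checked first. H2afy, which encodes macroH2A1, had 1368 reads in KO2 and 1267 in KO4, beside 5538 in WT6 and 5593 in WT8 (log2 fold change -2.23, edgeR quasi-likelihood adjusted p = 0.00167). Total counts lay between 16470090 and 18136745 per library, and the 63 members took 0.102% to 0.116% of them. Neural transcripts were abundant in all libraries, with 48827 to 55139 reads of the neuronal tubulin gene Tubb3. Of 12 meningeal markers 11 were in both tables, 6 of them with at most 11 reads in any library (Foxc2, Aldh1a2, Slc6a13, Tbx18, Twist1 and Ogn), and none was at 0.

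As class sums, basement membrane genes far exceeded the fibrillar genes of connective tissue in these brains. Summed over the class and divided by exon length, the 21 basement membrane genes stood at 58.8 CPM per kb in KO2 and 58.0 in KO4, beside 59.3 in WT6 and 68.8 in WT8, where CPM is the read count scaled to a common library size of 1000000 reads. The 5 meningeal fibrillar genes (Col1a1, Col1a2, Col3a1, Col5a1 and Col5a2) stood at 3.37, 2.94, 2.89 and 4.11 CPM per kb in the same order. The ratio of the classes was thus 17.4 in KO2 and 19.7 in KO4, beside 20.5 in WT6 and 16.7 in WT8, with the genotypes overlapping. Part of this ratio reflects the number of genes, 21 against 5. Single genes overlapped between the classes. Their 4-library means ran from 0.047 (Lama3) to 13.45 CPM per kb (Col4a2) for basement membrane and from 0.132 (Col1a1) to 1.33 (Col5a2) for fibrillar genes. In bulk tissue fewer cells of a type and less RNA per cell cannot be told apart, so these are levels of the whole piece.

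Sparc, which encodes a collagen-binding glycoprotein of the matrix, had the highest level per length of all members, 32.9 CPM per kb as the mean of the 4 libraries. It was followed by the type IV collagen gene Col4a2 at 13.45, the fibulin gene Fbln1 at 13.2, the cartilage-type fibrillar gene Col2a1 at 12.3 and Col4a1 at 11.0 CPM per kb. These 5 were the members above 10 CPM per kb. The ranges of Col4a2, Fbln1, Col2a1 and Col4a1 over the libraries overlapped from each to the next, so their order is not settled, while Sparc (29.5 to 38.5) stood clear of Col4a2 (11.9 to 17.3). In all, 27 members lay above 1 CPM per kb, 23 between 0.1 and 1, and 13 below 0.1. For 56 of the 62 neighbouring ranks the ranges overlapped. Col1a1, the main chain of bone and skin collagen, lay at only 0.132 CPM per kb, on 8 to 21 reads per library.

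**Figure D1:**
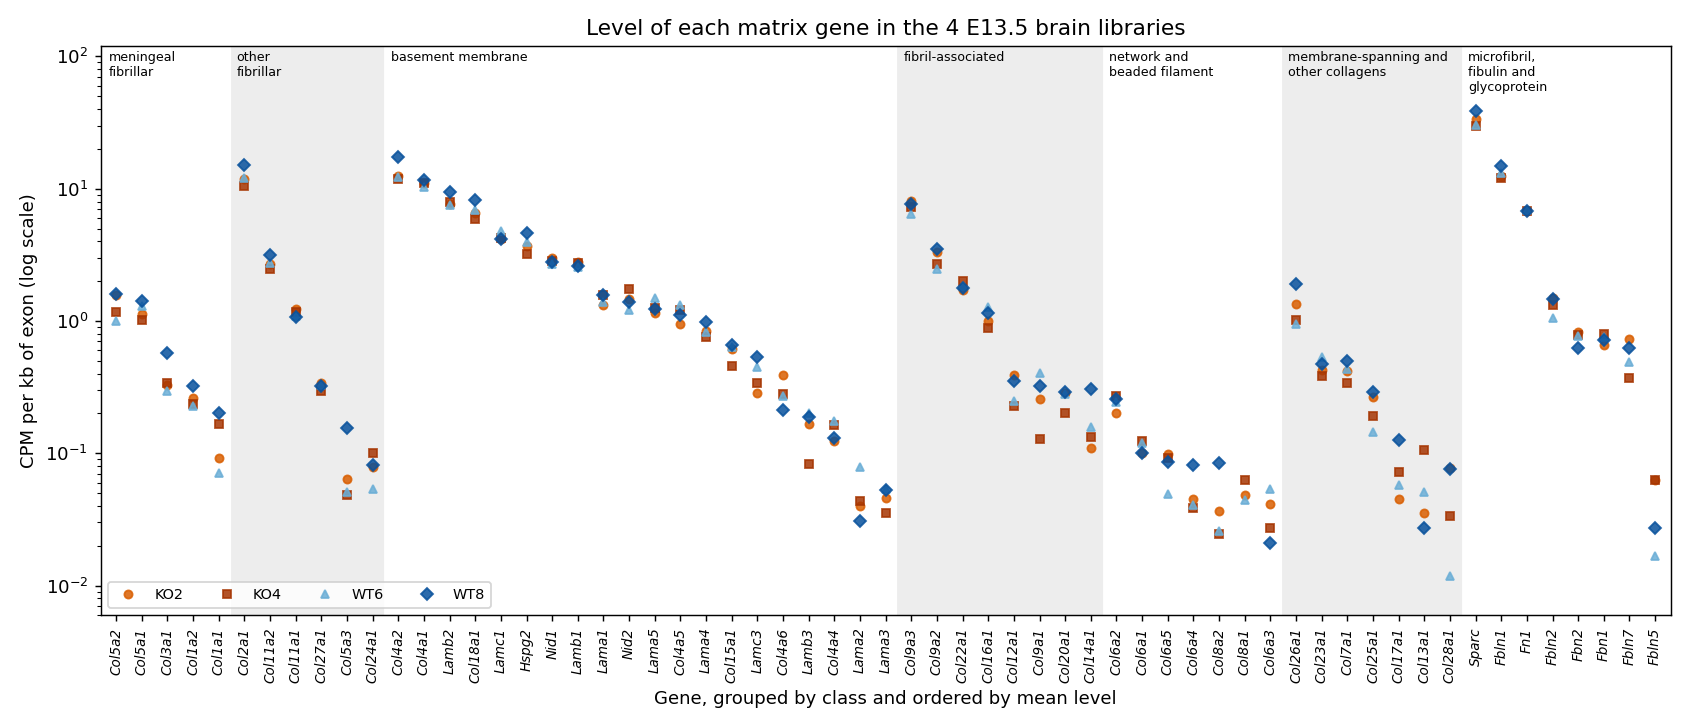
CPM per kb of exon on a log axis for 61 of the 63 members (Col4a3bp is among those left out), grouped by class and ordered by mean within it, with a marker for each library. Sparc lay between 29.5 and 38.5 and the meningeal fibrillar genes at or below 1.6 in every library; Col8a1 had 0 reads in WT8 and has no marker there.

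Within each trimer family a few chains made up most of the transcript. Per length, Col4a1 took 38.3% to 44.9% of type IV collagen over the libraries and Col4a2 48.4% to 57.0%, while Col4a5 took 3.63% to 5.41% and Col4a6 and Col4a4 less. Among laminin gamma chains Lamc1 took 86.4% to 89.9%. Among beta chains Lamb2 took 72.3% to 77.0% and Lamb1 21.4% to 26.1%. The alpha chains were shared out more evenly, with Lama1 at 36.4% to 43.0%, Lama5 at 31.7% to 38.8% and Lama4 at 20.5% to 25.3%. Lama1 and Lama5 overlapped in their shares. Lama2, the alpha chain of muscle, and Lama3, that of epithelia, stayed at or under 2.04%. In type I collagen Col1a2 exceeded Col1a1, and in type IX Col9a3 took 66.9% to 71.7% against 1.29% to 4.34% for Col9a1, although both encode chains of 1 trimer.

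No matrix gene was called different between knockout and wild-type brains. Among the 52 tested, edgeR called 0 higher and 0 lower in KO at the adjusted threshold of 0.05 (smallest adjusted p 0.743), where 1 of all 15708 genes, or 0.00637%, was called. DESeq2, which called 0.0255% of all genes, and limma-voom, with 0.00637%, also called 0 members. At an unadjusted p under 0.05 edgeR gave 1 member, Hspg2, against 4.70% of all genes. Log2 fold changes (KO over WT) ran from -0.92 (Col14a1) to 0.50 (Col6a5) with a median of -0.09, beside -0.01 for all genes, and 18 of the 52 were above 0, where 48.9% of all genes were. The median 95% interval of a member reached 0.49 to either side on the log2 scale. Differences smaller than a gene's own interval were not detectable with 2 libraries a group. Both KO libraries lay below both WT libraries for 15 members and above them for 9, where 19.4% and 20.1% of all genes did so. In either direction that was 46.2% of the members beside 39.4% of all genes.

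**Figure D2:**
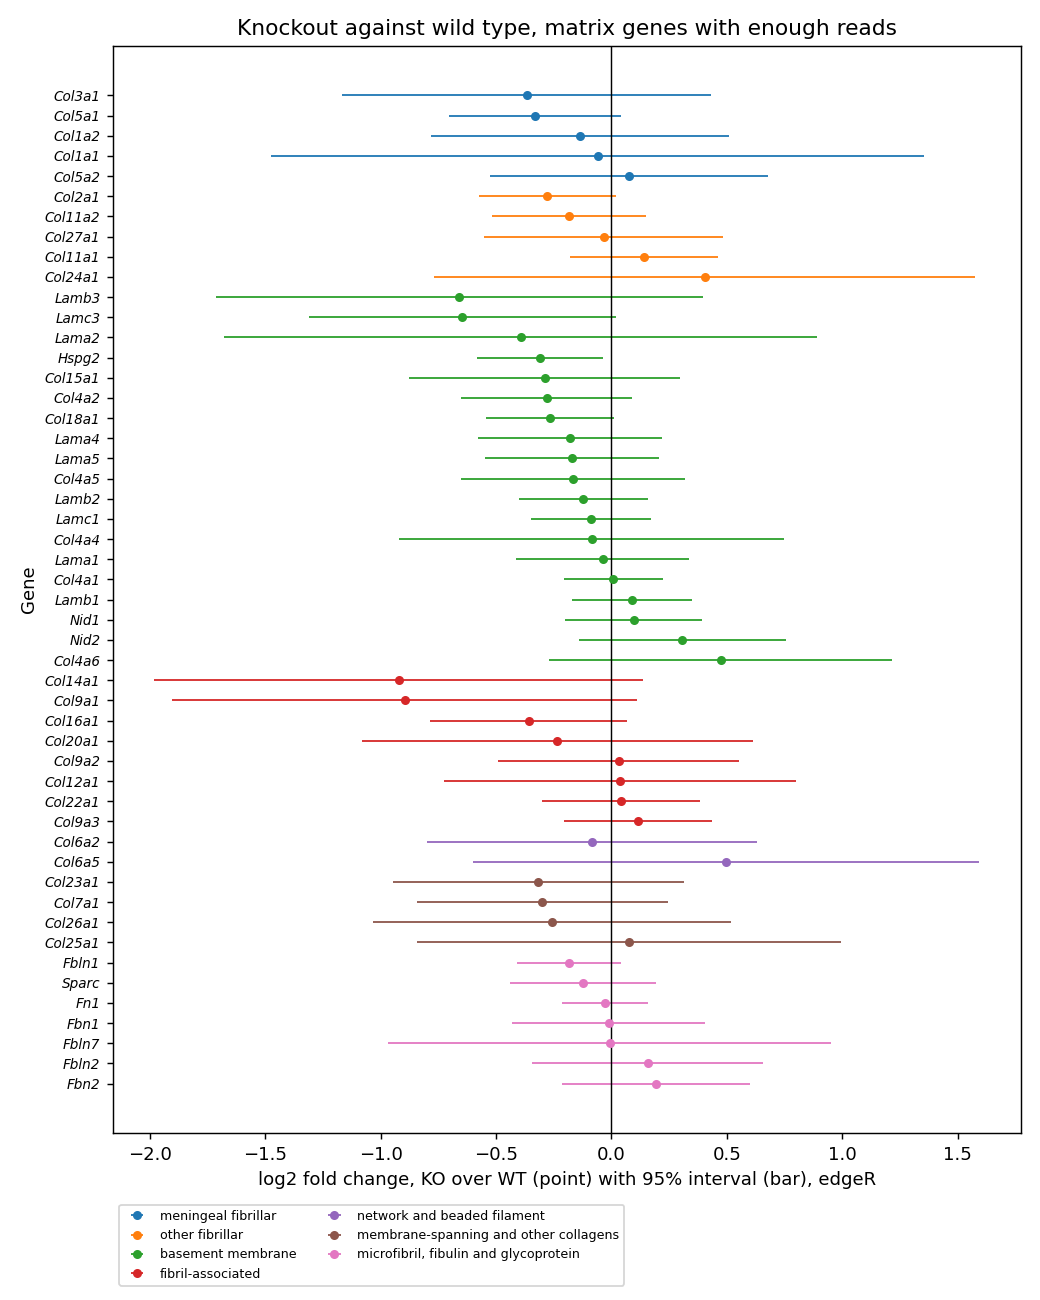
Log2 fold change, KO over WT, with its 95% interval from edgeR for 50 of the 52 tested members (Col4a3bp is among those left out), coloured by class. The interval of Hspg2 (-0.58 to -0.04) leaves out 0 before adjustment; those of the other genes drawn include 0, and intervals are widest for genes with few reads such as Col1a1.

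The fibrillar genes of the meninges showed no call, and for 4 of the 5 the genotypes overlapped. Over all tested genes 39.4% had genotypes that did not overlap. Col5a2, which encodes a chain of the type V collagen that starts and limits fibrils, had 15.0 CPM in KO2 and 11.3 in KO4, beside 9.59 in WT6 and 15.3 in WT8. Col5a1, its partner chain, had 9.60, 8.68, 11.0 and 12.02 CPM in the same order. For Col5a2 both KO values lay between the WT values, and for Col5a1 both KO values lay below both WT values. Col3a1, the type III chain of soft and vascular tissue, had 3.22 CPM in KO2 and 3.33 in KO4, beside 2.91 in WT6 and 5.57 in WT8. Col1a2 of type I collagen had 3.27, 2.95, 2.85 and 4.01 CPM. WT8 was the highest library for both, and WT6 the lowest. Col1a1 had 11 reads in KO2 and 20 in KO4, beside 8 in WT6 and 21 in WT8, so that each genotype held 1 lower and 1 higher library.

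WT8 was the highest library for all 5 meningeal fibrillar genes, beside 32.8% of all genes. WT6 was the lowest for all but Col5a1, beside 20.7% of all genes. Of the 5, 3 had a WT8 to WT6 ratio beyond counting error at 95% (Col5a2, Col3a1 and Col1a1), against 40.7% of all tested genes. The ratio was 1.60 for Col5a2 (exact interval 1.31 to 1.96), 1.92 for Col3a1 (1.34 to 2.77) and 2.83 for Col1a1 (1.20 to 7.38); these intervals cover counting error only and compare the libraries, not the genotypes. The edgeR log2 fold changes, KO over WT, were 0.08 (SE 0.25) for Col5a2, -0.33 (SE 0.16) for Col5a1, -0.37 (SE 0.34) for Col3a1, -0.14 (SE 0.27) for Col1a2 and -0.06 (SE 0.60) for Col1a1. Their median was -0.14. Without WT8 it was 0.18, with Col3a1 at 0.18, Col1a2 at 0.13 and Col1a1 at 0.86, so the lower side of the median and of these genes rested on that library. Col5a1 stayed on the lower side, at -0.26 without WT8 and -0.40 without KO2. Without WT6 Col5a2 stood at -0.23.

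Genes of the type IV network were among the best measured. Col4a1 had 82.1 CPM in KO2 and 82.4 in KO4, beside 77.1 in WT6 and 86.6 in WT8, and a log2 fold change of 0.01 (95% interval -0.21 to 0.22). Both KO values lay between the WT values, and without WT6 the fold stood at -0.08. Col4a2, whose product joins that of Col4a1 in the common type IV trimer, had 81.9, 78.9, 81.0 and 114 CPM in the same order and a log2 fold change of -0.28 (-0.65 to 0.09), which was -0.01 without WT8 and -0.51 without WT6. WT8 stood apart for Col4a2, at 1.41 times WT6 (counting interval 1.31 to 1.51), against 1.12 times for Col4a1 (1.04 to 1.21). The ratio of Col4a2 to Col4a1 per length was thus 1.12 in KO2 and 1.08 in KO4, beside 1.19 in WT6 and 1.49 in WT8. These genes lie head to head on chromosome 8, Col4a1 from 11198423 to 11312826 on the minus strand and Col4a2 from 11312805 to 11449287 on the plus strand (GRCm38), and their first exons share 22 bases. Reads over those bases, 0.295% of the exon length of Col4a1, cannot be assigned if counting ignored strand.

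The remaining type IV chains were scarce. Col4a6 had 3.11 CPM in KO2 and 2.24 in KO4, beside 2.15 in WT6 and 1.69 in WT8 (27 to 57 reads), with both KO values above both WT values and a log2 fold change of 0.47 (-0.27 to 1.22), or 0.23 without KO2. Col4a5, its head-to-head neighbour on chromosome X, lay at 6.33 to 8.84 CPM with WT6 highest and a fold change of -0.17 on the log2 scale. Col4a4 lay at 1.31 to 1.86 CPM. None of the 5 type IV genes passed.

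Perlecan and the collagens that carry heparan sulfate or endostatin domains were on the lower side in KO without passing. Hspg2, on chromosome 4 from 137468769 to 137570630, had 52.4 CPM in KO2 and 45.8 in KO4, beside 56.1 in WT6 and 65.7 in WT8, or 49.1 ± 4.70 in KO and 60.9 ± 6.78 in WT (mean ± SD, n = 2 each). Both KO libraries lay below both WT libraries, and the log2 fold change was -0.31 (SE 0.12, interval -0.58 to -0.04), with an unadjusted edgeR p of 0.0322 that became 0.743 after adjustment. Col18a1, the source of endostatin, had 46.3, 41.7, 48.1 and 57.6 CPM and stood at -0.26 (-0.54 to 0.01). Col15a1, a relative of Col18a1, had 3.87, 2.89, 4.07 and 4.20 CPM and stood at -0.29 (-0.87 to 0.30). For each of these 3 genes both KO libraries lay below both WT libraries, KO4 was the lowest and WT8 the highest. Over all tested genes both KO libraries were lower for 19.4%, KO4 was lowest for 26.4% and WT8 highest for 32.8%. Of the 20 tested basement membrane genes, 5 had both KO libraries lower and 5 had both higher. The sizes rested in part on those libraries: without WT8 Hspg2 stood at -0.19 and Col18a1 at -0.13, and Col15a1 stood at -0.09 without KO4 and -0.51 without KO2.

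No laminin chain was called. Most of the chains given here stood on the lower side in KO, apart from Lamb1, with intervals that included 0. Lamc1, the gamma chain of most laminins, had 34.5 CPM in KO2 and 35.3 in KO4, beside 39.7 in WT6 and 34.6 in WT8 and a log2 fold change of -0.09 (-0.35 to 0.17), or 0.01 without WT6. Lamb1, the beta chain of early basement membranes, had 27.5, 27.1, 25.5 and 25.8 CPM and stood at 0.09 (-0.17 to 0.35). Lamb2, the beta chain known from vessels and the neuromuscular junction, had 46.6, 48.1, 46.0 and 57.0 CPM and stood at -0.12 (-0.40 to 0.16), or at 0.05 without WT8. For Lamb1 both KO values lay just above both WT values, whereas Lamc1 and Lamb2 overlapped, each with 1 WT library that stood above the other 3.

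Among alpha chains, Lama1 had 12.8 CPM in KO2 and 15.2 in KO4, beside 13.54 in WT6 and 15.2 in WT8, and a log2 fold change of -0.04 (-0.41 to 0.34), or 0.09 without KO2. Lama5 had 13.2, 14.3, 17.0 and 13.9 CPM and Lama4, the endothelial alpha chain, 10.1, 9.06, 9.94 and 11.8 CPM. Their log2 fold changes were -0.17 and -0.18, and their genotypes overlapped. Each value rested on 1 WT library, since Lama5 stood at -0.02 without WT6 and Lama4 at -0.05 without WT8. Lama2 had 12, 13, 22 and 8 reads and stood at -0.39, a value that rested on WT6: without it the fold was 0.44. Lamb3, a chain of epithelial laminin, had 20, 10, 23 and 20 reads and stood at -0.66 (-1.71 to 0.40), or -0.25 without KO4 and -1.23 without KO2. Lamc3 had 32, 38, 47 and 52 reads with both KO libraries lower, at -0.65 (-1.31 to 0.02). A gene on the opposite strand covers 6.27% of the exon length of Lamc3, so part of its reads is uncertain.

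Nidogens, which link laminin to type IV collagen, stood slightly on the higher side. Nid1 had 20.8 CPM in KO2 and 19.8 in KO4, beside 18.8 in WT6 and 19.2 in WT8, and a log2 fold change of 0.10 (-0.20 to 0.39). Nid2 had 7.58, 9.01, 6.22 and 7.20 CPM and stood at 0.31 (-0.14 to 0.76), or 0.18 without KO4 and 0.20 without WT6. Both KO libraries exceeded both WT libraries for each, by less than the interval of the fold. An antisense neighbour, Rtraf, covers 8.45% of the exon length of Nid2, so part of its reads is uncertain. Over the 20 tested basement membrane genes 6 were above 0 (48.9% of all genes), 0 were called (0.00637% of all genes), and the median was -0.14 (-0.007 for all genes). The class median was -0.05 without WT6 and -0.17 without KO4, the highest and lowest values with 1 library left out and the filter reapplied.

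Promoter sequences are shown to set the fibrillar and basement membrane genes side by side at their starts. RefSeq starts (GRCm38.p6) were found for 45 of the 63 members, and the 250 bases before each start were searched on both strands for 3 motifs. For each member the start nearest to the annotated gene start was kept, which lay 94295 bases away for Lamb3 and 49344 for Col25a1. Of the 45 windows only 24 were free of annotated exons. The 32841 promoters used for comparison were not limited to 1 per gene. The letters of the TATA box were TATAAA. For the CCAAT box the name gives the letters. The GC box was searched as GGGCGG. Neighbouring matches may share bases. A GC box was present in 27 of 45 members (60.0%) against 32.7% of 32841 promoters, a CCAAT box in 16 (35.6% against 33.9%) and a TATA box in 4 (8.9% against 12.4%). Median G+C content was 59.2% in the members and 52.4% in all promoters, and none of the 14 basement membrane promoters held the TATA letters. Below are the stretches upstream of annotated exons for a pair of fibrillar genes that differ in G+C content (Col3a1 and Col5a1) and for perlecan, Nid1 and Lama5 of the basement membrane, 5′ to 3′ on the strand of the gene, with motif matches in capitals.
Col3a1, chr1:45311288-45311537, plus strand: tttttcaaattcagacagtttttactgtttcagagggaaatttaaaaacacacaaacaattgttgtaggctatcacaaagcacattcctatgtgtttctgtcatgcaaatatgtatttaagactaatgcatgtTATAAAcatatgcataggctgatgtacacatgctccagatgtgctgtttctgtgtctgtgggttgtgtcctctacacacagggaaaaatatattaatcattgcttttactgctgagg
Col5a1, chr2:27886175-27886424, plus strand: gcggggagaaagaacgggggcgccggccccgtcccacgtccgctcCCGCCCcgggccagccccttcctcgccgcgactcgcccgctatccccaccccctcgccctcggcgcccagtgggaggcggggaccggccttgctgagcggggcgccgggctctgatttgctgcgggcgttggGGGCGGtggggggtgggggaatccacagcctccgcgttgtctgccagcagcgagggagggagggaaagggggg
Hspg2, chr4:137468553-137468768, plus strand: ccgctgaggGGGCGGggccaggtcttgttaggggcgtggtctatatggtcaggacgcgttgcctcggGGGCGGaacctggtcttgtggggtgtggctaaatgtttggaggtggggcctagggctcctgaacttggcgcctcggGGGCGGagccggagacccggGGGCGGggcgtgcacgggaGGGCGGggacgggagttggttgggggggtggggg
Nid1, chr13:13437352-13437550, plus strand: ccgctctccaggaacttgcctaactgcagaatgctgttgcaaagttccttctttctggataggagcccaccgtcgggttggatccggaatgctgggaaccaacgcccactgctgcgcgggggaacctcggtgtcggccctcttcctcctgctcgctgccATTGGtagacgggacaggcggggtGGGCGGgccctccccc
Lama5, chr2:180225860-180226109, minus strand: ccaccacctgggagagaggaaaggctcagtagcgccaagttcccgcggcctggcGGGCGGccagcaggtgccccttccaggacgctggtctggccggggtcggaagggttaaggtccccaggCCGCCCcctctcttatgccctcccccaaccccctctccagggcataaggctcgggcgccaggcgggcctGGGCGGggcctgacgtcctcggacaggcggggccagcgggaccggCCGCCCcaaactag
Col3a1 was poor in G+C (35.2%) and held 1 TATA match and no GC box, while Col5a1 (76.4%) held 2 GC boxes, Hspg2 (70.8%) 5, Lama5 (72.4%) 4 and Nid1 (63.8%) 1 beside 1 CCAAT match. A match describes letters and does not show a working site, and the absence of one says only that these letters are not in the window.

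Among the cartilage-type fibrillar genes Col2a1 was abundant, while the measured cartilage markers were near the limit of detection. Col2a1, the type II collagen of cartilage that is also made by embryonic neuroepithelium, had 109 CPM in KO2 and 97.5 in KO4, beside 111 in WT6 and 139 in WT8. Its log2 fold change was -0.28 (-0.58 to 0.02), with both KO libraries lower, and it was -0.10 without WT8 and -0.43 without WT6. Col11a1 of type XI collagen had 15.6, 14.8, 13.8 and 13.7 CPM and stood at 0.14 (-0.18 to 0.46), with both KO libraries higher, and its partner Col11a2 stood at -0.18. Only 4 of 8 cartilage markers were in both tables (Matn4, Hapln1, Chad and Ucma), and together they had 20 to 30 reads per library, against 1787 to 2218 for Col2a1. Col24a1 had 11, 14, 7 and 10 reads and stood at 0.40 (-0.77 to 1.58), with 0.12 without WT6, 0.22 without KO4 and 0.74 without WT8. Col27a1 stood at -0.03, and Col5a3, with 6 to 17 reads, was not tested.

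Fibril-associated collagens, which coat fibrils and do not form them, held the lowest fitted folds, on few reads. Col9a1 had 24 reads in KO2 and 12 in KO4, beside 35 in WT6 and 26 in WT8, and a log2 fold change of -0.90 (-1.90 to 0.11). Col14a1 had 14, 17, 19 and 34 reads and stood at -0.92 (-1.98 to 0.14). Both KO libraries were lower in each. Without WT8 Col14a1 stood at -0.38, and Col9a1 stood at -0.48 without KO4 and -1.47 without KO2. The better measured chains of type IX, Col9a2 and Col9a3, stood at 0.03 and 0.12 and did not follow Col9a1. Col12a1 had 5.89 CPM in KO2 and 3.44 in KO4, beside 3.78 in WT6 and 5.32 in WT8, so that each genotype held 1 high and 1 low library, and stood at 0.04 (-0.72 to 0.80). Without KO2 its fold was -0.40 and without KO4 it was 0.37. The remaining genes of the class, Col16a1, Col20a1 and Col22a1, lay between -0.36 and 0.04.

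Most network-forming collagens held few reads, and 4 of the 7 membrane-spanning and other collagens were tested. Col6a2 of the beaded type VI filaments had 31 reads in KO2 and 41 in KO4, beside 35 in WT6 and 34 in WT8 and a log2 fold change of -0.08 (-0.80 to 0.63), or 0.11 without KO2. Col6a1 had 7 to 10 reads and Col6a3 had 4 to 11, too few to be tested. Col6a5 had 17, 16, 8 and 13 reads and stood at 0.50 (-0.60 to 1.59), or 0.14 without WT6 and 0.95 without WT8. Col6a4, Col8a1 and Col8a2 had at most 11 reads in any library, and Col8a1 had 0 in WT8, which at this depth allows up to 3. Col26a1, a collagen first described in testis and ovary, had 203 reads in KO2 and 153 in KO4, beside 133 in WT6 and 248 in WT8, and WT8 stood at 2.01 times WT6 (counting interval 1.62 to 2.50). Col25a1, a membrane-spanning collagen of neurons, had a similar ratio of 2.02 (1.29 to 3.21). Both overlapped between genotypes, at -0.26 and 0.08 on the log2 scale. Col7a1 and Col23a1 stood at -0.30 and -0.32, and Col13a1, Col17a1 and Col28a1 had 1 to 12 reads. Col26a1 was named here after its values were seen.

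Sparc had 127 CPM in KO2 and 112 in KO4, beside 114 in WT6 and 146 in WT8, and a log2 fold change of -0.12 (-0.44 to 0.19), or 0.07 without WT8. Fibronectin, the cell-adhesive glycoprotein encoded by Fn1, had the narrowest fold interval of the tested members, with 78.8, 78.6, 80.6 and 79.8 CPM and a log2 fold change of -0.03 (-0.21 to 0.16). Fbln1 had 54.8, 52.8, 57.4 and 64.9 CPM, both KO libraries lower, and stood at -0.18 (-0.41 to 0.04), or -0.09 without WT8. Fbln2, which binds basement membrane and elastic fibres, had 9.44, 8.46, 6.68 and 9.39 CPM and stood at 0.16, or at -0.07 without WT6. The fibrillin genes, whose products form the microfibrils of elastic tissue, did not pass: Fbn1 had 7.97, 9.72, 9.19 and 8.64 CPM (-0.01, or 0.13 without KO2) and Fbn2 10.9, 10.3, 10.2 and 8.27 CPM (0.19, or 0.06 without WT8 and 0.35 without WT6). An antisense gene covers 20.1% of the exon length of Fbn1, so its reads are uncertain. Fbln5 had 8, 8, 2 and 3 reads and was not tested. Fbln7 stood at -0.01 on 22 to 43 reads.

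The libraries of 1 genotype differed from each other. WT8 was the highest library for 23 of the 52 tested members, where it was highest for 32.8% of all genes, and the lowest for 6, where it was lowest for 34.0%. KO4 was the lowest for 20 (26.4% of all genes) and WT6 for 16 (20.7%). The ratio of WT8 to WT6 exceeded counting error upward for 18 members and downward for 3, beside 20.6% and 20.1% of all genes (40.7% in all). Between KO4 and KO2 the ratio did so upward for 2 and downward for 8, beside 26.8% of all genes in either direction. The 3 members lower in WT8 were all laminin chains, Lamc1, Lama5 and Lama2.

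By class, the median deviation of the meningeal fibrillar genes from their 4-library mean on the log2 scale was -0.09 in KO2 and -0.13 in KO4, beside -0.31 in WT6 and 0.30 in WT8. For basement membrane genes it was -0.06, -0.02, 0.02 and 0.02. The median of the fibrillar class therefore spread over a wider range among libraries than that of the basement membrane class, and WT6 and WT8 marked its ends. These are medians of 5 and 20 tested genes, and opposite shifts cancel in a median. Beyond counting error, 5 basement membrane genes were higher and 3 lower in WT8 than in WT6. Membrane-spanning and other collagens, with 4 tested genes, ranged about as widely as the fibrillar class, from -0.26 in KO4 to 0.33 in WT8. Summed over the class, basement membrane genes were also highest in WT8, at 530 CPM against 447 to 463 in the others, with Col4a2 at 114 CPM in WT8 against 78.9 to 81.9. No test was made of these medians and sums.

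Marker lists moved with the libraries too. The 11 measured meningeal markers summed to 32.3 CPM in KO2 and 31.3 in KO4, beside 24.4 in WT6 and 40.1 in WT8, where the meningeal fibrillar genes summed to 31.6, 27.3, 26.8 and 38.3 CPM. Crabp2 gave the largest part of the marker sum, with 240, 272, 168 and 359 reads, followed by Prrx1 with 148 to 211 and Foxc1 with 51 to 69. Without Crabp2 the sums were 19.2, 16.5, 14.6 and 17.6 CPM, so that WT6 was still the lowest but KO2 and not WT8 the highest. The median deviation of the 5 tested markers was likewise lowest in WT6 (-0.185) and highest in KO2 (0.065), with 0.046 in KO4 and -0.014 in WT8. The 12 endothelial markers summed to 231 to 278 CPM and the 8 pericyte markers to 147 to 174 CPM, both lowest in KO4 and highest in WT8, as were the summed basement membrane genes. Neural progenitor markers were also highest in WT8 and lowest in KO4 (1940 to 2240 CPM). Bone markers were mostly Alpl (184 to 269 reads), with Runx2, Sp7 and Ibsp at 2 to 11 reads, and of 5 skeletal muscle markers the 2 measured were Myh3 with 2 to 4 reads and Tnnt1 with 11 to 24. Microglia and macrophage markers summed to 19.7 to 26.9 CPM, choroid plexus markers (4 of 5 measured) to 3.93 to 10.5 CPM and neuronal markers to 5910 to 6350 CPM. Each of these sums was likewise lowest in KO4 and highest in WT8, but the medians did not all share that order. The median deviation of the microglia and macrophage markers did, from -0.189 in KO4 to 0.293 in WT8. That of the neuronal markers was highest in KO2 (0.051) and lowest in WT8 (-0.049). For the 2 tested choroid plexus markers it was lowest in KO4 (-0.327) and highest in WT6 (0.309). Tubb3 alone gave 2790 CPM of the neuronal sum in KO4 and 3440 CPM in WT8. Slc2a1 alone gave 82 CPM of the endothelial sum in KO4 and 111 CPM in WT8. The part of these cells in the matrix values was not tested.

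**Figure D3:**
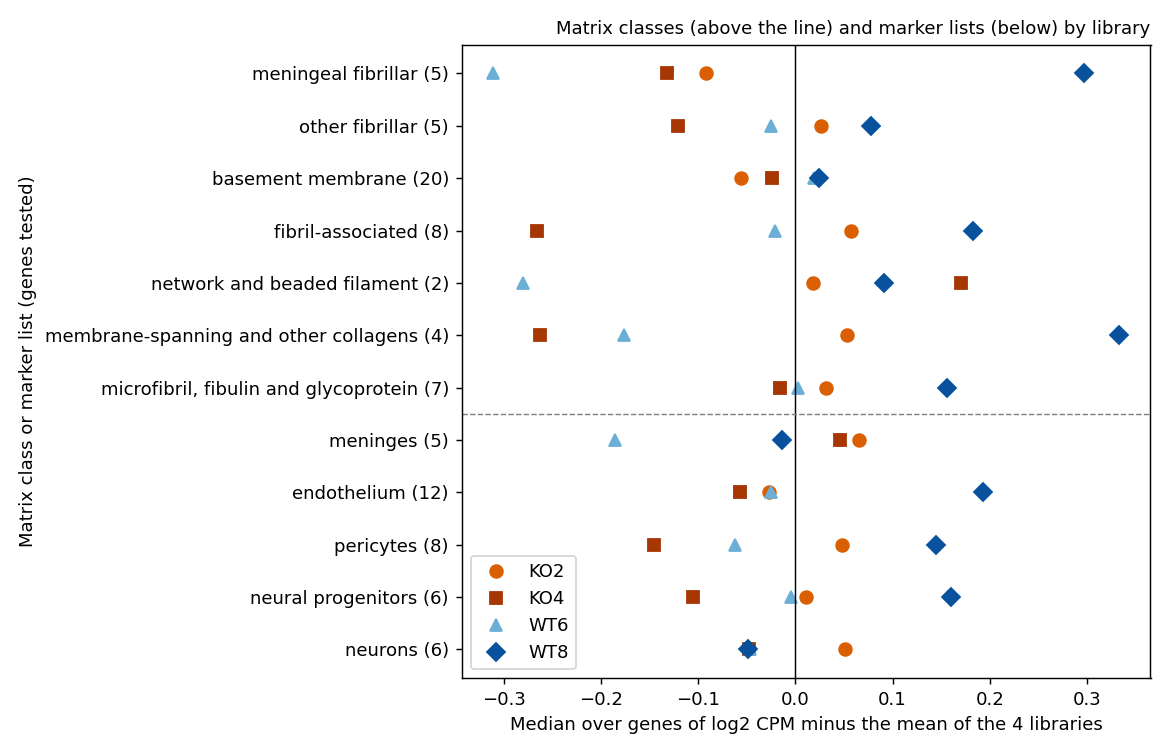
Median over tested genes of log2 CPM minus the 4-library mean, for each matrix class and for marker lists of other cells, with a marker for each library. Meningeal fibrillar genes run from -0.31 in WT6 to 0.30 in WT8 while basement membrane genes stay between -0.06 and 0.02; the network class rests on 2 genes.

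The 2 pairs of libraries that the authors compared gave opposite directions for about as many members as genes in general. The log2 ratio KO2 over WT6 and that of KO4 over WT8 differed in sign for 27 of 52 members (51.9%), beside 50.1% of all genes. Of these, 18 were above 0 in the first pair and below 0 in the second (24.8% of all genes) and 9 the other way (25.3%). Meningeal fibrillar genes made up 4 of the 18. The median over members was 0.02 in the first pair and -0.27 in the second, beside 0.001 and 0.007 for all genes.

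In the authors' deposited table for KO2 over WT6, 0 of the 63 members carried the mark of significance, beside 1.86% of all genes listed. The authors' deposited table for KO4 over WT8 marked 4 members, Col9a1, Col14a1 and Col5a3 as lower and Col8a1 as higher, beside 5.05%. All 4 had at most 35 reads in any library. At the authors' adjusted p under 0.05 alone, their deposited table for the first pair held 8 members higher and 2 lower (8.58% and 8.67% of genes, or 17.3% in all), and that for the second 4 higher and 16 lower (23.8% and 15.2%, or 39.0% in all). Sparc had opposite signs in the pairs: the authors' deposited tables gave it a log2 fold change of 0.159 (adjusted p = 0.00276) in the first pair and -0.317 (adjusted p = 4.18e-12) in the second. Col5a2 was likewise at 0.651 (adjusted p = 5.43e-05) and -0.378 (adjusted p = 0.0109) in the authors' deposited tables, and Col26a1 at 0.529 and -0.831. Each of those p-values compares 1 library with 1 other.

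**Figure D4:**
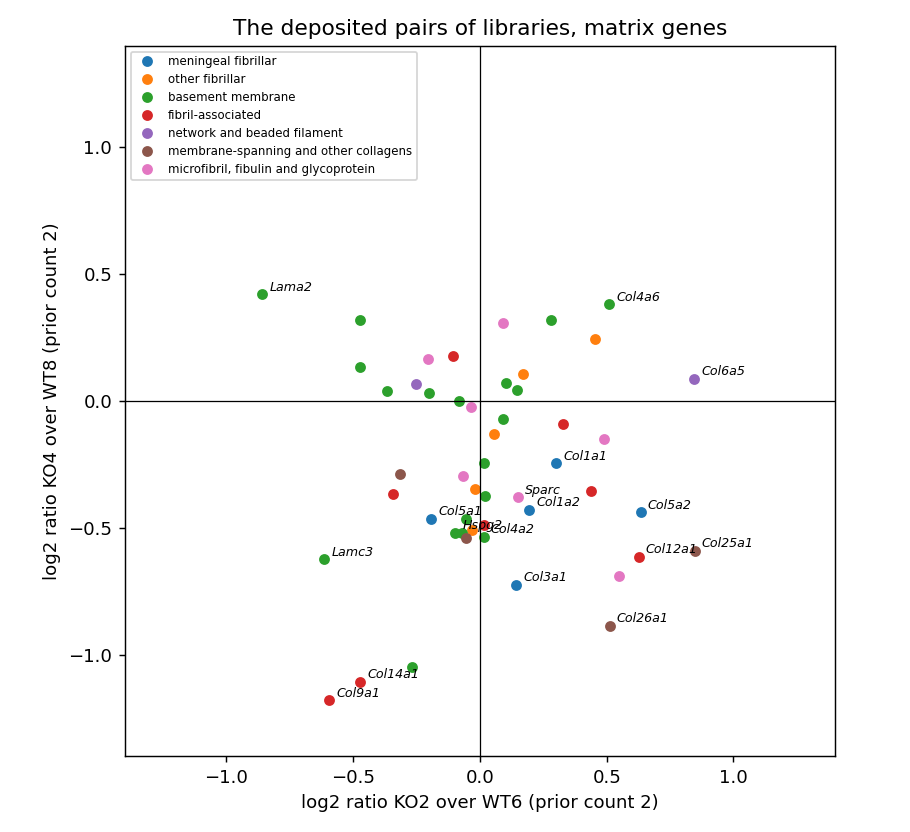
Log2 ratio KO2 over WT6 (horizontal) against KO4 over WT8 (vertical) for 50 of the 52 tested members (Col4a3bp is among those left out), coloured by class, with a prior count of 2. Many genes sit at lower right, above 0 in the first pair and below 0 in the second, among them Col5a2, Col3a1, Col26a1 and Col25a1; Col9a1 and Col14a1 are lowest on the vertical axis.

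Genes that make, cross-link, bind and degrade these proteins were not called either. Of 51 listed partners 50 were in both tables and 48 were tested, with 0 higher and 0 lower in edgeR and 3 at an unadjusted p under 0.05 (background 4.70%). Their median log2 fold change was -0.003, and 24 of the 48 were above 0. Among 15 genes of hydroxylation and folding, P4ha3, a subunit of the enzyme that hydroxylates collagen prolines, had 103 reads in KO2 and 97 in KO4, beside 67 in WT6 and 53 in WT8 (log2 fold change 0.60, edgeR adjusted p = 0.743), and Ppib, a prolyl isomerase of the same route, stood at -0.17. Among cleavage and cross-linking genes the lysyl oxidase relative Loxl1 had 249, 150, 311 and 251 reads (-0.64), and the procollagen protease gene Adamts2 stood at -0.61. Of the 13 receptors the collagen receptor gene Ddr1 stood at -0.18 and the laminin receptor subunit Itga7 at 0.74 on 9 to 28 reads. Of the turnover genes Mmp14, a membrane-bound collagenase, had 1591, 1595, 1795 and 1590 reads (-0.23) and Mmp16 stood at 0.27. Serpinh1, the collagen chaperone, named after its values were seen, had 3027 to 3467 reads per library, against at most 2326 for Sparc.

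Several members are neighbours in the genome. Pairs within 100000 bases of each other include Col3a1 and Col5a2, tail to tail on chromosome 1 with 24614 bases between them; Col6a2 and Col6a1; Col6a5 and Col6a4; Col4a1 and Col4a2; and Col4a6 and Col4a5, head to head with 1308 bases between. Col3a1 and Col5a2 were both highest in WT8 and lowest in WT6, but KO2 was near WT8 for Col5a2 (15.0 against 15.3 CPM) and not for Col3a1 (3.22 against 5.57). Col4a5 was highest in WT6 and Col4a6 in KO2. Exons of 19 members share bases with another annotated gene, 16 of them with a gene on the opposite strand, and strand use in counting is not stated in the labels. For Col9a3 the opposite-strand gene covers 6.07% of the exon length.

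Col4a3bp, which the name rule picked, had 29.1 CPM in KO2 and 32.5 in KO4, beside 26.7 in WT6 and 24.1 in WT8, with both KO libraries higher and a log2 fold change of 0.28 (-0.01 to 0.57). Without it, 0 of 51 tested members were called and the median was -0.09. Lama3 had 7 to 10 reads and was not tested.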

How the data were processed

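Counts were analysed for 4 E13.5 mouse brain libraries (2 KO, 2 WT), grouped by the genotype in their titles. The authors deposited 2 tables of whole-number read counts per gene, not normalized, per the file headers, with 1 KO and 1 WT library in each. The authors' log2 fold change and p-values per gene come from the same deposited tables, and the sources used here do not give their test. Per the submitters' processing notes, the tools included HTSeq 0.6.0, TopHat2 2.0.12 and Bowtie2 2.2.3, with mm9 as the build and no roles given. Positions in the tables matched GENCODE M21 (GRCm38) for 60 of 63 members and are given on that build. The 4 columns of normalized values were not used.

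Tables were joined by gene identifier (19150 genes). The edgeR 4.0.16 quasi-likelihood test in R 4.3.3 was fitted to the 15708 genes kept by filterByExpr, with TMM factors (0.971 to 1.01), genotype as the only term and Benjamini-Hochberg adjustment at 0.05. DESeq2 1.42.0, limma-voom (3.58.1), other normalizations, no filter, the deposited pair as a term and fits without each library were alternatives. Fold intervals are at 95%. Levels per kb use the union of GENCODE exons, which includes rare isoforms. Deviations use log2 CPM with a prior count of 2. The fit was also run on simulated counts with known changes larger than the fitted folds of the tested members. That run does not show how the fit performs for smaller folds.

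Members, classes, partner and marker lists, and genes named with values in every library (a fixed list, members with an unadjusted p under 0.05 and the 3 largest folds in each direction; for partners the 2 smallest p of each group), were chosen with earlier results of these data known. Lamc3, Fbln5, Col4a3bp and Col26a1 are also given with values in every library, outside those rules. No statistic over a class was tested. For 1 member no values of its own are reported here; it stays in the counts and medians. Leaving out Col4a3bp and leaving out Crabp2 were chosen after seeing the data.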

Additional observations from a re-analysis of the deposited data

How the results depend on the processing

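No paired analysis was possible because the genotypes share no replicate number; the deposited pair was tried as a term instead. Of all genes 1 was called in edgeR, 2 with library totals alone, 2 with the pair as a term, 4 by DESeq2 and 0 to 104 with 1 library left out; 0 members were called in any of these. Median differences in log2 for basement membrane genes (-0.144) were -0.107 with library totals, -0.169 without a filter, -0.171 from summed counts and -0.172 to -0.054 with 1 library left out. Left-out ranges were -0.397 to 0.176 for meningeal fibrillar, -0.418 to -0.045 for fibril-associated, -0.397 to 0.07 for membrane-spanning, -0.192 to -0.026 for other fibrillar (-0.217 by summed CPM) and -0.164 to 0.013 for network genes (0.208; -0.085 without a filter, -0.084 from summed counts). The filter was reapplied in each left-out fit, which tested 55 to 57 members against 52, so class medians there can cover other genes. The network value of 0.208 rests on Col6a2 and Col6a5. Without KO2 these stood at 0.111 and 0.459, both above the network median of -0.164 in that fit. The basement membrane deviation with library totals was -0.039 in KO2, -0.003 in KO4 and -0.019 in WT8, and by summed CPM -0.081 in KO4, -0.03 in WT6 and 0.164 in WT8. Single genes that turned direction with 1 library left out ranged from -0.395 to 0.374 (Col12a1), -0.634 to 0.858 (Col1a1), -0.366 to 0.131 (Col1a2), -0.768 to 0.176 (Col3a1), -0.076 to 0.098 (Col4a1), -0.227 to 0.456 (Col5a2), -0.299 to 0.111 (Col6a2), -0.071 to 0.425 (Fbln2), -0.163 to 0.131 (Fbn1), -0.172 to 0.09 (Lama1), -0.895 to 0.438 (Lama2), -0.269 to 0.045 (Lamb2), -0.18 to 0.013 (Lamc1) and -0.289 to 0.066 (Sparc). Library totals alone gave 0.024 for Fbn1, 0.009 for Fn1 and 0.0 for Lama1, and limma-voom gave 0.058 for Col1a1. The cause of these shifts was not tested. With 2 libraries a group, and 11 members below the filter, small differences are not detectable; a fit that leaves 1 library in a genotype assumes that it varies like the other group.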
